A study of Mus musculus with 6 samples.

Results

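Imprinted genes outside the Dlk1-Dio3 cluster were examined in mouse yolk sacs at embryonic day 9.5. The set holds 40 genes chosen by name from the well-known mouse imprinted clusters, with earlier results of these data known. Each was read from the probe set that carries its symbol alone. Of the 40 genes, 34 had such a probe set, 1 each, among 19938 different symbols on the array. No probe set was listed under the symbol of H19, Kcnq1ot1 or Zrsr1, and Gnas, Snrpn and Ube3a were listed only on probe sets shared with other genes, so these 6 genes are not reported here. Tested were probe sets whose mean log2 signal over the 6 arrays reached the 30th percentile of those with a symbol (4.29). Under this filter 31 of the 34 genes were tested, while Usp29, Mkrn3 and Rasgrf1 were too dim.

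The mutant group held 3 yolk sacs of embryos homozygous for a gene-trap allele of Tnrc6a, written GW182gt/gt in the study's design, set against 3 yolk sacs of wild-type littermates. Tnrc6a encodes GW182, the protein that couples Argonaute and its microRNAs to repression and decay of target mRNAs. Individual embryos gave 1 yolk sac each, total RNA was hybridised to Affymetrix Mouse Gene 1.0 ST arrays, and both genotype labels carry the unexplained word mixed. Values are deposited log2 signals, in which a difference of 1 is a 2-fold change.

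In an imprinted gene one parental copy is silenced by a mark, usually DNA methylation, laid down in the germ line. Paternally expressed genes such as Igf2, Peg3 and Mest tend to promote growth of the embryo and its membranes, and maternally expressed ones such as Igf2r, Cdkn1c and Phlda2 tend to restrain it. The arrays measure total transcript and do not tell the parental copies apart. In RNA of a whole tissue, fewer cells of a type and less RNA per cell cannot be told apart.

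The arrays carried the markers of a yolk sac: 16 of 16 visceral endoderm genes reached the filter level, Apob reading 11.9 to 12.3 and Apoa4 11.8 to 12.3, and the embryonic globin gene Hbb-y read 12.7 to 13.1. Signals of Tnrc6a were 7.81 (the library labelled mutant 1), 5.33 (mutant 2) and 5.20 (mutant 3), against 8.40, 7.62 and 8.29 in wild types 1 to 3. The first of these libraries goes against its label, as it lies above wild type 2, and each mutant direction below includes it unless stated. Xist was high (9.63 or more) in 3 libraries, those labelled mutant 1, mutant 3 and wild type 1, and 3.58 to 3.90 elsewhere. Array medians over all 35557 probe sets lay between 5.19 and 5.22. Precision is set by having 3 arrays a genotype: the typical (median) standard error was 0.10 on the log2 scale.

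The start regions of the members are shown first for 4 genes, picked with their values known. Peg3 separated the genotypes, and Zim1, Plagl1 and Ndn were among the members that differed most between arrays of the same genotype. Other members of both kinds, among them Inpp5f, Asb4 and Slc38a4, are not shown. The sequences are the 250 bases before each RefSeq gene start (GRCm38.p6), 5′ to 3′ along the gene, with CpG pairs, the sites of DNA methylation, in capitals. Peg3 (chr7:6730420-6730669, minus strand) and Zim1 (chr7:6696433-6696682, minus strand) are neighbours on chromosome 7. Plagl1 (chr10:13090582-13090831, plus strand) lies on chromosome 10 and Ndn (chr7:62348027-62348276, plus strand) on chromosome 7.
Peg3: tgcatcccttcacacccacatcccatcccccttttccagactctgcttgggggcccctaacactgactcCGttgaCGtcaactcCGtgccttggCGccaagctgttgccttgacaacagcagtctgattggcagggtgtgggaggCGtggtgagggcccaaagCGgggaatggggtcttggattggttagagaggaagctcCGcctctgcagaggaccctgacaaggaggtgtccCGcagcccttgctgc
Zim1: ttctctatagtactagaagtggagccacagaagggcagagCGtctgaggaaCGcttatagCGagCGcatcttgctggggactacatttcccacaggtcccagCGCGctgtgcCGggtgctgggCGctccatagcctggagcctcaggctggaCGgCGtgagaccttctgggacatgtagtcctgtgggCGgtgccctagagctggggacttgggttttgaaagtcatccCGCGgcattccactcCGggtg
Plagl1: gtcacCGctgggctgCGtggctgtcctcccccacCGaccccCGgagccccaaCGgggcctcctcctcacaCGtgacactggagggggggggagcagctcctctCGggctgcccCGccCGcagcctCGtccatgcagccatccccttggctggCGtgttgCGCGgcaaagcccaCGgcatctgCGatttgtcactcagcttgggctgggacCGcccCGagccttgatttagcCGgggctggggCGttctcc
Ndn: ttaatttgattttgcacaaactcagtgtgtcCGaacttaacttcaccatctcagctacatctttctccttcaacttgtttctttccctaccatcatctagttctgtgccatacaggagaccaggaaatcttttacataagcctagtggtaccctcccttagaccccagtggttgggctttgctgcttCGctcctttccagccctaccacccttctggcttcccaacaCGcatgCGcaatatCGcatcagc
These stretches hold 8 CpG pairs in Peg3, 14 in Zim1, 19 in Plagl1 and 5 in Ndn. The window of Peg3 runs into that of Usp29, which is read from the opposite strand: the windows of 300 bases share 263 bases.

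RefSeq windows of 300 bases, 250 before and 50 after the start, were used for 33 of the 40 members, 51 windows in all. Member windows on chromosome 18, which holds Impact, are not reported here, and the windows of all genes had no such step. CpG pairs stood above 0.6 of the number that the base composition gives in 51.0% of the members' windows and in 35.8% of 32851 windows of all genes. The hexamer TGCCGC, the methylated target of the imprint-protecting factor ZFP57, was present on either strand in 10 of 51 windows (19.6%), against 11.6% of all windows. Zim1, Plagl1, Mest, Nnat, Copg2, Igf2, Grb10, Commd1 and Snrpn held it. The core ATGGCG of the factor YY1 occurred in 6 windows (11.8%, against 8.93% of all). These are matches of letters only. Several windows belong to the same gene, and those of Mest that held TGCCGC overlap. TGCCGC itself contains a CpG pair, and its share was not adjusted for the higher CpG content of the members' windows.

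No imprinted gene passed the genotype test. In the limma fit across all 16387 tested probe sets, 0 of 31 members had an adjusted p under 0.05, and over all tested probe sets the share was 0%. At an unadjusted p under 0.05 there were 4 members (12.9%), Inpp5f, Peg3, Peg10 and Cdkn1c, all higher in the mutants, where 3.53% of all tested probe sets passed in either direction and 2.25% as higher. The mutants lay wholly above the wild types for 4 of 31 members (Inpp5f, Peg3, Peg10 and Airn), against 5.17% of all tested probe sets. They lay wholly below for 0 members, against 3.38% of all, and 8.55% of all tested probe sets were separated in either direction.

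Most members read slightly higher in the mutants. Of the 34 measured genes 28 had a higher mutant mean (82.4%), with a median log2 difference of 0.10, against 53.0% and 0.0081 for all 23410 probe sets with a symbol. The excess leaned on mutant 3: among the 31 tested members 25 were higher over all arrays, and 19 without mutant 3, where the median was 0.044. With each array centred on its median over the 23410 probe sets with a symbol, 22 of 31 were higher (median 0.070). The median of all tested probe sets then moved to −0.026. Endothelial markers, a list also chosen with earlier results of these data known, lay the same way. Of these, 10 of 10 were higher in the mutants, with a median difference of 0.27. At an unadjusted limma p under 0.05 there were 3 (all tested probe sets, 3.53%), and 4 lay wholly above the wild types (all, 5.17%). Kdr, a VEGF receptor gene, read 9.03, 9.23 and 9.36 in the mutants, against 8.86, 8.97 and 8.58 in wild types. Tie1, a receptor gene of the same cells, differed by 0.28 (SE 0.0885), and the part of these cells in the members' differences was not tested.

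**Figure D1:**
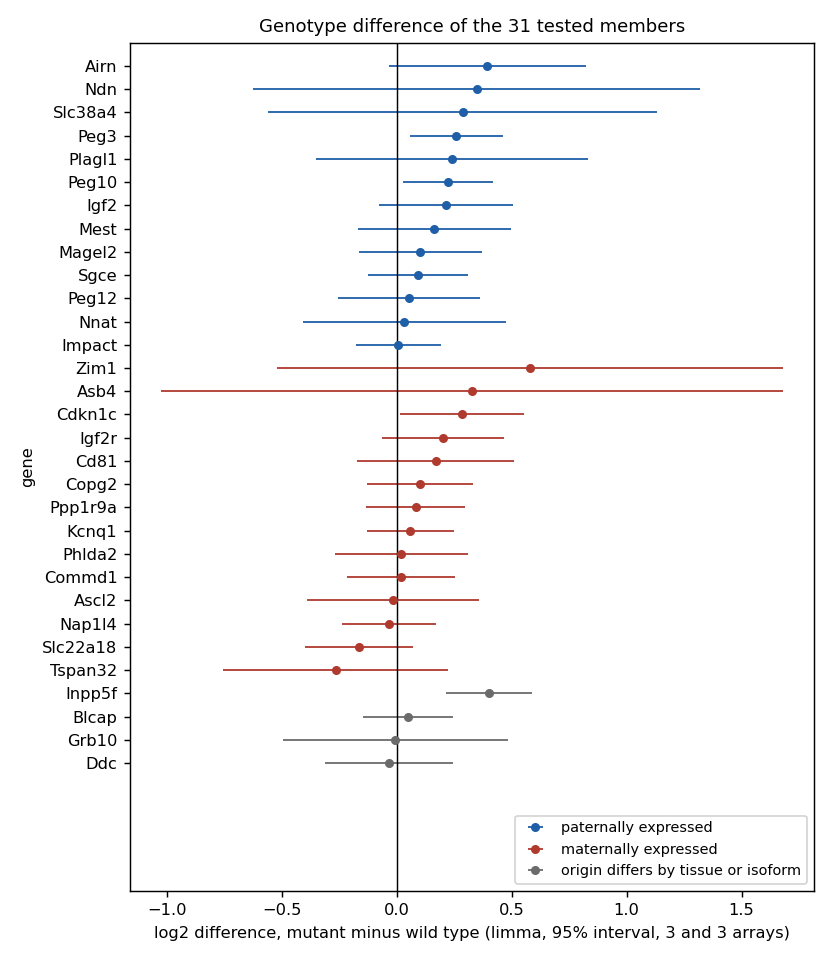
Log2 difference, mutant minus wild type, of the 31 tested imprinted genes (x axis) with the 95% interval of the limma fit over 3 mutant and 3 wild-type arrays. Each row is a gene, coloured by the parental copy expressed; 25 points lie above 0, and the intervals of Inpp5f, Peg3, Peg10 and Cdkn1c exclude it before adjustment.

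Among paternally expressed genes, 16 of 16 measured members had a higher mutant mean, with a median log2 difference of 0.17. For all probe sets with a symbol these values were 53.0% and 0.0081. The 16 include the 3 dim genes Usp29, Mkrn3 and Rasgrf1, and Impact at 0.0063. Impact became −0.026 with each array centred on its median. At an adjusted p under 0.05, 0 of 13 tested genes passed. The median of the 13 tested was 0.21 over all arrays and 0.062 without mutant 3, where 9 were higher and 4 (Ndn, Magel2, Peg12 and Slc38a4) lower. Peg3, a zinc finger protein of growth control, had the lowest p of this class. It read 10.56, 10.51 and 10.49 in the mutants, given from here on as the library labelled mutant 1, then mutants 2 and 3, against 10.30, 10.35 and 10.13 in wild types 1 to 3. All 3 mutant arrays stood above the highest wild type, at a log2 difference of 0.26 (SE 0.087, unadjusted p = 0.0192, adjusted p = 0.999). Usp29, the deubiquitinase gene that shares the start region of Peg3, was dim in every array (3.40 to 3.85) and was not tested.

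Peg10, a retrotransposon-derived gene that the mouse placenta needs, read 11.66, 11.82 and 11.62 in the mutants, against 11.51, 11.50 and 11.43 in wild types. The groups did not overlap, and the difference was 0.22 (SE 0.084, unadjusted p = 0.0316, adjusted p = 0.999). Sgce, which encodes epsilon-sarcoglycan and starts next to Peg10 on chromosome 6, read 8.21, 8.39 and 8.39 in the mutants and 8.27, 8.33 and 8.12 in wild types, so here the groups overlapped (difference 0.0924, SE 0.0935).

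Airn, the non-coding RNA that silences the paternal copy of Igf2r, read 7.81, 7.81 and 8.12 in the mutants, against 7.74, 7.71 and 7.11 in wild types. Wild type 3 was the low array, and the difference of 0.39 (SE 0.18, unadjusted p = 0.0672, adjusted p = 0.999) was 0.19 without it. Airn overlaps Igf2r on the opposite strand, and where the probes lie within either gene was not analysed here.

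Igf2, the fetal growth factor, was among the 3 brightest paternally expressed members with Mest and Peg10. Igf2 read 11.07, 11.44 and 11.35 in the mutants and 10.98, 11.24 and 11.00 in wild types (difference 0.21, SE 0.12). The library labelled mutant 1 lay below wild type 2, and without that library the difference was 0.32 (unadjusted p = 0.0289, adjusted p = 1.00). Mest, a hydrolase-fold protein abundant in mesoderm, read 11.63, 11.89 and 12.12 in the mutants, against 11.58, 11.90 and 11.67 in wild types. Its groups overlapped (difference 0.16, SE 0.14).

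The remaining paternally expressed genes showed smaller or less even differences. Nnat, which encodes the membrane proteolipid neuronatin, read 9.48 in mutant 2 and 9.51 in wild type 2 but 8.95 to 9.09 in the other arrays, for a difference of 0.0335 (SE 0.19). Impact, a regulator of the translation kinase Gcn2, varied least of all members, with a range of 0.15 over the 6 arrays and a difference of 0.0063 (95% interval −0.18 to 0.19). Magel2, a MAGE family gene, read 4.79 to 5.16 (difference 0.10) and Peg12, which encodes the Frat3 binding partner of GSK3, read 5.50 to 5.96 (difference 0.053). The dim genes Mkrn3 and Rasgrf1, a makorin ring finger gene and a Ras exchange factor gene, differed by 0.19 and 0.030.

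**Figure D2:**
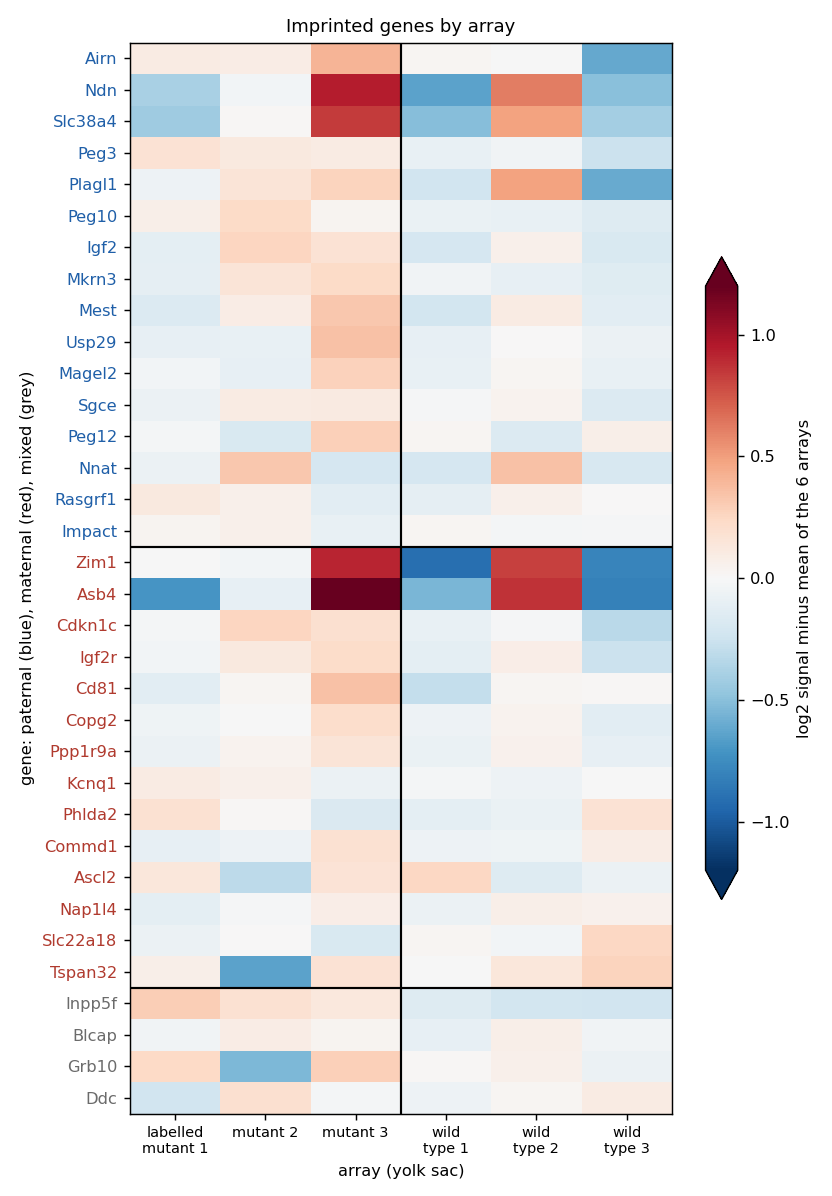
Log2 signal of the 34 measured imprinted genes minus each gene's mean over the 6 arrays (colour), with mutant arrays left of wild types and genes grouped by the parental copy expressed. Mutant 3 and wild type 2 are the high arrays for Ndn, Slc38a4, Zim1 and Asb4, and Inpp5f, Peg3, Peg10 and Airn are higher in all 3 mutants.

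Among maternally expressed genes, 10 of 14 had a higher and 4 a lower mutant mean, with a median log2 difference of 0.070, and 0 of 14 passed at an adjusted p under 0.05. Cdkn1c, the CDK inhibitor p57, read 10.76, 11.04 and 10.97 in the mutants, against 10.69, 10.77 and 10.46 in wild types. The library labelled mutant 1 lay below wild type 2 by a narrow margin, and the difference was 0.28 (SE 0.12, unadjusted p = 0.0428, adjusted p = 0.999). Igf2r, the receptor that clears IGF2 to lysosomes, read 10.20, 10.34 and 10.44 in the mutants and 10.11, 10.31 and 9.97 in wild types (difference 0.20, SE 0.11). Igf2r and its antisense partner Airn both read higher in the mutant mean.

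Phlda2, which restrains placental growth, read 11.28, 11.11 and 10.91 in the mutants, against 10.97, 11.01 and 11.26 in wild types. With Cdkn1c and Igf2r it was among the 3 brightest maternally expressed members, and its difference was 0.0185 (95% interval −0.27 to 0.31). Cd81, a tetraspanin gene, read 10.57 in mutant 3 and 9.92 to 10.24 in the other arrays (difference 0.17). Tspan32, a tetraspanin of blood cells, read 6.001 in mutant 2 and 6.64 to 6.92 elsewhere. Its difference of −0.27 (SE 0.21) became −0.010 without mutant 2. Relative to wild type, the 9 measured primitive erythroid markers averaged −0.091, −0.765 and −0.128 in the mutants and 0.019, −0.068 and 0.048 in wild types, and their part in the Tspan32 value was not tested. All 9 reached the filter level and had a lower mutant mean, where 47.6% of all tested probe sets did. Of the 9, 3 had an unadjusted p under 0.05, against 3.53% of all. Hbb-y and Alas2, the erythroid heme synthesis gene, had the lowest p, at differences of −0.25 and −0.53.

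The other genes of the class were close between genotypes. Kcnq1, a potassium channel gene, differed by 0.059, Nap1l4, a histone chaperone gene, by −0.0345, and Commd1, a gene of copper handling, by 0.018. Copg2, which encodes a coatomer subunit and overlaps the end of Mest, differed by 0.10, and Ppp1r9a, the gene of the actin-binding protein neurabin, by 0.082. Unadjusted p-values of these 5 genes ran from 0.33 for Copg2 to 0.862 for Commd1.

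Of the 4 measured genes whose expressed copy depends on tissue or isoform, Inpp5f stood out. Inpp5f, a phosphoinositide phosphatase gene with an imprinted short variant in brain, read 8.29, 8.18 and 8.13 in the mutants, against 7.85, 7.78 and 7.77 in wild types. The spread was small in both genotypes, at 8.20 ± 0.084 in mutants and 7.80 ± 0.0415 in wild types (SD, n = 3 each), and all mutants lay above all wild types. The difference of 0.40 (SE 0.080, 95% interval 0.21 to 0.59) corresponds to 1.32-fold. Its unadjusted p of 0.00131 was the 11th lowest of all tested probe sets, and its adjusted p was 0.999. Leaving out any single array kept the difference between 0.36 and 0.44. The library labelled mutant 1, whose Tnrc6a level was near wild type, was the highest of the 3 mutants for Inpp5f. Inpp5f lies on chromosome 7, as does the disrupted gene, with 153 RefSeq coding and long non-coding genes between them.

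Grb10, an adaptor that dampens insulin and IGF receptor signalling, read 10.18, 9.40 and 10.23 in the mutants and 9.95, 9.9995 and 9.87 in wild types. The low value of mutant 2 set the difference: it was −0.0072 over all arrays and 0.26 without mutant 2 (unadjusted p = 0.0282, not under 0.05 after adjustment). The neighbouring Ddc, the gene of dopa decarboxylase, differed by −0.035 and Blcap, whose intron holds Nnat, by 0.048. Chromosome 7 holds 21 of the 40 members and 17 of the measured ones. The median difference was 0.11 for these 17 and 0.092 for the 17 on other chromosomes.

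Some members differed widely between arrays of the same genotype. Ranked by the pooled SD within genotypes among all tested probe sets, 19 of 31 members stood at or above the median and 12 below it, among them Impact, Kcnq1, Inpp5f, Peg10 and Peg3. The median percentile was 65.2 for the members and 66.9 for other genes reported as imprinted. It was 73.6 for the IGF pathway, 77.8 for endothelial, 93.1 for trophoblast and decidua, 94.4 for primitive erythroid and 98.1 for mesenchyme markers. Visceral endoderm markers, at 57.2, and imprint maintenance and DNA methylation factors, at 38.2, stood below the members. These lists were not tested against each other. The percentile was 99.7 for Asb4, 99.5 for Zim1, 99.4 for Ndn, 99.2 for Slc38a4 and 97.3 for Plagl1. These 5 genes were picked after their values were seen, and belong to both parental classes and to 4 chromosomes. In each of them mutant 3 was the highest mutant and wild type 2 the highest wild type.

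Asb4, a maternally expressed ankyrin and SOCS box gene, read 6.87, 7.48 and 8.87 in the mutants, against 7.03, 8.44 and 6.77 in wild types, a 4.28-fold range. Zim1, the maternally expressed zinc finger gene next to Peg3, read 6.77, 6.75 and 7.69 in the mutants, against 5.88, 7.60 and 5.99 in wild types. While Peg3 varied by 0.43 over the arrays, Zim1 varied by 1.81. The genotype difference of Zim1 was 0.58 (SE 0.47) over all arrays and 1.14 without wild type 2 (unadjusted p = 0.00556), the widest change that leaving out 1 array made in it.

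Ndn, the paternally expressed necdin gene, read 7.59, 7.95 and 8.92 in the mutants, against 7.34, 8.59 and 7.48 in wild types. Its neighbour Magel2 was highest in the same 2 arrays, though over a range of 0.38. Plagl1, the zinc finger factor ZAC1, read 9.34, 9.56 and 9.68 in the mutants, against 9.18, 9.89 and 8.80 in wild types. For Asb4, Ndn and Slc38a4 the difference changed sign without mutant 3, to −0.24, −0.036 and −0.061, and for Plagl1 without wild type 3, to −0.0045.

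Over all tested members, 14 of 31 (45.2%) had wild type 2 as the highest wild type and mutant 3 as the highest mutant, where 18.6% of all tested probe sets did. This pair of arrays was also chosen after the values were seen. By the same count the share was 80% for endothelial, 50% for mesenchyme and 33.3% for primitive erythroid markers. It was 26.7% for the IGF pathway and 20% for trophoblast and decidua markers. For imprint maintenance and DNA methylation factors it was 18.2%, for other genes reported as imprinted 17.9% and for visceral endoderm markers 6.25%. Relative to wild type, 10 of 10 measured endothelial markers averaged 0.066, 0.23 and 0.50 in the library labelled mutant 1, mutant 2 and mutant 3, and −0.14, 0.20 and −0.062 in wild types 1 to 3, so the same arrays led. The 10 mesenchyme markers averaged −0.26, 0.28 and 0.21 in the mutants and −0.34, 0.59 and −0.25 in wild types. Bmp4, a growth factor gene, and Pdgfrb, a receptor gene, had the lowest p of that list, at differences of 0.25 and 0.19. All 20 of these markers reached the filter level, and their part in the spread of the imprinted genes was not tested.

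**Figure D3:**
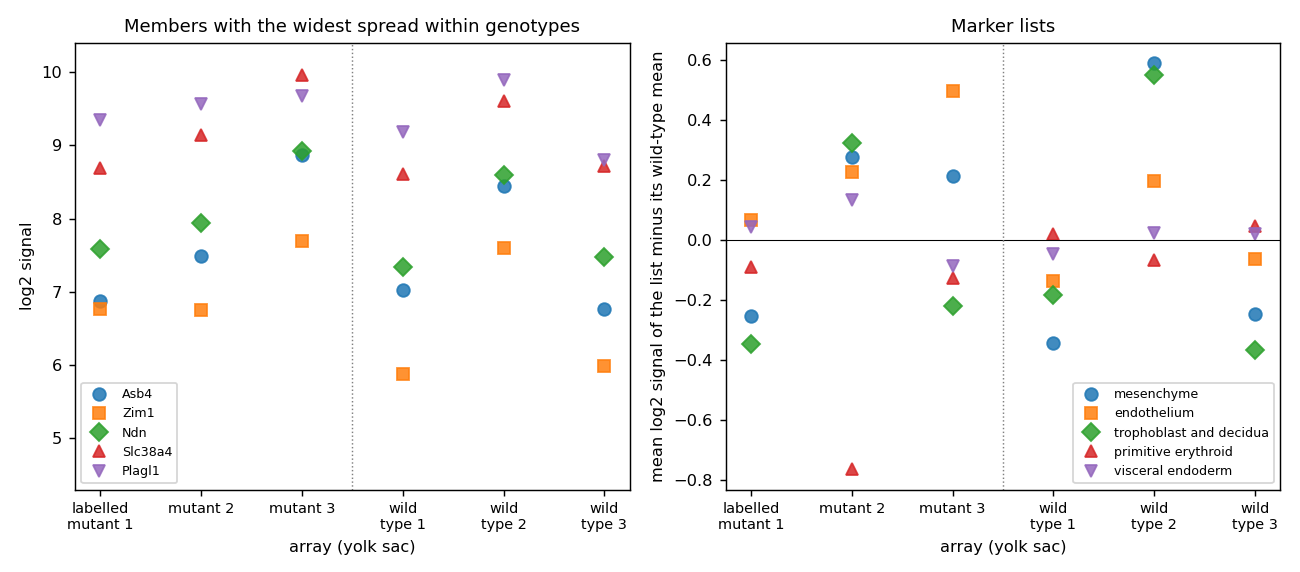
Left, log2 signal of the 5 members with the widest spread within genotypes in each array; right, the mean of each marker list minus its wild-type mean, with mutants left of the dotted line and wild types right of it. Mutant 3 and wild type 2 are the highest array of their genotype for all 5 genes and for the endothelial list.

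The 6 placenta-enriched members did not all lie on 1 side. Their median log2 difference was 0.12, with 4 higher and 2 lower in the mutants, and 0 passed at an adjusted p under 0.05. Without mutant 3 the median was 0.025. Peg10, Cdkn1c and Phlda2 are given above. Slc38a4, an amino acid transporter gene of placenta and liver, read 8.69, 9.14 and 9.96 in the mutants, against 8.61, 9.60 and 8.71 in wild types, and the groups overlapped widely (difference 0.29, SE 0.36).

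Ascl2, the transcription factor that trophoblast progenitors need, was near the filter level, at 4.91, 4.46 and 4.94 in the mutants and 5.03, 4.62 and 4.71 in wild types (difference −0.016, 95% interval −0.39 to 0.36). Slc22a18, a transporter gene next to Phlda2 in the Cdkn1c cluster, read 7.20, 7.27 and 7.09 in the mutants, against 7.29, 7.24 and 7.51 in wild types (difference −0.16, SE 0.10). Both thus read lower in the mutant mean, with overlapping groups.

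Trophoblast and decidua markers were read beside these genes. Relative to wild type, the 19 measured markers averaged −0.35, 0.32 and −0.22 in the library labelled mutant 1, mutant 2 and mutant 3, and −0.18, 0.55 and −0.37 in wild types 1 to 3. Of these markers 9 were under the filter level, among them Tpbpa and Tpbpb. Prl4a1, a prolactin-like hormone, read 3.51 to 5.14 in the mutants and 4.06 to 7.13 in wild types, wild type 2 being the highest. Hand1, a trophoblast giant cell and mesoderm factor, differed by 0.23 (SE 0.16). The 6 placenta-enriched members averaged 0.031, 0.088 and 0.197 in the mutants and −0.035, 0.072 and −0.037 in wild types. By these means the library labelled mutant 1 was the lowest mutant and wild type 2 the highest wild type in both lists. The highest mutant was mutant 3 for the placenta-enriched members and mutant 2 for the markers. The markers kept this order by medians, and the placenta-enriched members did not. Their medians were 0.12, 0.095 and 0.149 in the mutants and −0.013, −0.026 and −0.061 in wild types. By these, mutant 2 was the lowest mutant and wild type 1 the highest wild type. Wild type 2 was the highest wild type for Slc38a4 and Cdkn1c and the lowest for Ascl2 and Slc22a18. The part of trophoblast or decidua in these values was not tested.

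**Figure D4:**
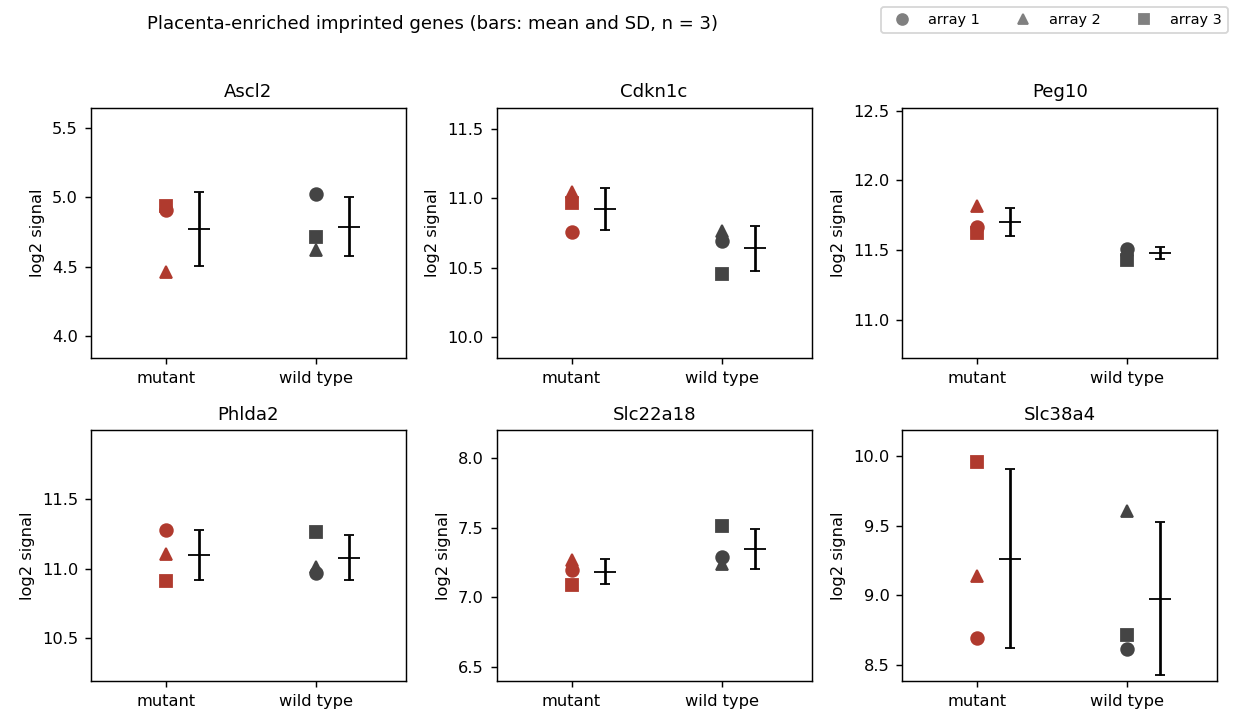
Log2 signal of the 6 placenta-enriched members, mutants (red) left of wild types (dark grey); marker shapes give array numbers and bars the mean and SD (n = 3 each). All panels span 1.8 log2 units, and the groups are apart only for Peg10, whose mutants read 11.62 to 11.82 and wild types 11.43 to 11.51.

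Genes around the imprinted ones were read from 3 further lists. Of 28 tested genes that have been reported as imprinted elsewhere in the mouse genome, 19 were higher and 9 lower in the mutants (median difference over 32 measured 0.038), and 0 passed after adjustment. At an unadjusted p under 0.05 there were 4 (14.3%, against 3.53% of all tested probe sets), 2 higher and 2 lower. Tnfrsf22, a decoy receptor gene of the Kcnq1 region, read 4.73, 4.66 and 4.56 in the mutants, against 4.20, 4.45 and 4.38 in wild types (difference 0.30, SE 0.096). Pde10a, a phosphodiesterase gene, read 5.71, 5.29 and 5.56 in the mutants, against 5.91, 6.21 and 5.71 in wild types (difference −0.43, SE 0.16).

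Factors that maintain or erase imprints were even, with 11 of 22 tested genes higher and 11 lower. Tet3, a methylcytosine dioxygenase, read 7.29, 7.20 and 7.19 in the mutants, against 6.76, 6.87 and 6.88 in wild types, with no overlap (difference 0.39, SE 0.079, adjusted p = 0.999). Tet2, a dioxygenase of the same family, differed by 0.25 (SE 0.13). Of 15 tested genes of the insulin-like growth factor pathway 9 were higher and 6 lower, 0 of them at an unadjusted p under 0.05. Igf1, the other IGF ligand gene, differed by 0.20 (SE 0.11) and Igf1r, the signalling receptor gene for both ligands, by 0.19 (SE 0.13).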

How the data were processed

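Total RNA of 6 individual yolk sacs (embryonic day 9.5) was measured on Affymetrix Mouse Gene 1.0 ST arrays, 3 per genotype, grouped by sample title. The deposited table holds the authors' processed log2 values of 35557 probe sets; MAS5 is the only tool given, per the submitters' processing notes, and the log base was read from the values (0.66 to 13.7). The sources used here give no background, summary or normalization step, so their effect on differences is unknown, and no further normalization was applied. GEO's platform annotation gave 1 gene symbol for 21789 probe sets, several for 1621 and none for 12147; current symbols through Entrez identifiers changed 0. At most 122 values were equal between any pair of arrays.

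Mutant minus wild-type differences were fitted with lmFit and eBayes of limma 3.58.1 (R 4.3.3) over 16387 probe sets, with Benjamini-Hochberg adjustment over all of them. The study's design names an unpaired test at 0.05, run as the methods' t-test. Alternatives were normalization, filters, variance models, array weights, the Xist level, the replicate number as a block, leaving out arrays, and gene means; leaving out wild type 2 with mutant 3 was added after seeing the data. The members, lists and parental classes were chosen with earlier results of these data known. By the naming rule, values of every array are given for members with an unadjusted p under 0.05 or separated groups, placenta-enriched ones and the 3 brightest of each class, and the 2 genes with the lowest p of each other list are named; Sgce, Grb10 and the 5 wide-ranging genes were added after seeing values. Simulated data held 3 against 3 arrays and 16387 probe sets. There the fit called 24.7% of changes of 0.5, 86.7% of 1 and 98.7% of 2 on the log2 scale. These shares need not hold for the real arrays. In those, the disrupted gene Tnrc6a differed by −1.99 (SE 0.65) and was not called after adjustment. Its pooled SD within genotypes stood at percentile 99.8 of all tested probe sets.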

Additional observations from a re-analysis of the deposited data

How the results depend on the processing

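No member passed an adjusted p of 0.05 under any of 18 alternatives (limma and the methods' t-test). In simulated data of this size, with 200 changed probe sets, 24.7% of changes of 0.5 were called. Smaller changes were not simulated, and the share need not hold for the real arrays. The lack of calls thus does not show that the members were unchanged. At an unadjusted p under 0.05 the members numbered 4 in the reported fit. They were 2 with centring on array medians, 1 to 7 when 1 array was left out (lowest without wild type 3, highest without wild type 2), 10 with the library labelled mutant 1 and wild type 2 both left out, and 6 with mutant 3 and wild type 2 both left out. With the replicate number as a block there were 4 (lowest adjusted p 0.987). Deviations of same-numbered arrays correlated at r = 0.448, 0.146 and −0.107, and those of differently numbered ones at −0.452 to 0.236. With 3 arrays a genotype these values cannot decide whether the numbers mark pairs. The reported fit was unpaired, as is the test that the study's design names. Inpp5f was under 0.05 in 18 of the 18 alternatives, Peg3 in 15, Peg10 in 10 and Cdkn1c in 10. All tested probe sets under 0.05 numbered 579, and 1086 with array weights, 395 to 1372 when 1 array was left out, 1173 and 1363 for the same pairs left out. The median difference of tested paternally expressed members was 0.21 (0.062 without mutant 3 to 0.25 without wild type 2). That of maternally expressed members was 0.070 (0.025 to 0.11 when 1 array was left out). For placenta-enriched members it was 0.12, and 0.22 with the filter at the 50th percentile, 0.025 to 0.15 when 1 array was left out, 0.073 and 0.16 for those pairs left out. For the 50th percentile, fewer genes tested is the change; for the others the cause was not tested.

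Of 554 single-gene values under alternatives 513 kept their direction and 41 changed it, in 14 of 31 members. With quantile normalization Grb10 became 0.018 and Commd1 −0.0073. With centring on medians Phlda2 became −0.014, Commd1 −0.015 and Impact −0.026. With array weights Commd1 became −0.028 and Peg12 −0.040, and with the Xist covariate Ddc became 0.036 and Peg12 −0.013. With the library labelled mutant 1 and wild type 2 left out, Phlda2 became −0.11, Nap1l4 0.043, Ddc 0.073 and Impact −0.021. With mutant 3 and wild type 2 left out (chosen after seeing the data), Commd1 became −0.091 and Peg12 −0.15. When 1 array was left out the differences ran from −0.070 to 0.11 for Phlda2, −0.10 to 0.14 for Ascl2, −0.082 to 0.015 for Nap1l4, −0.24 to 0.84 for Asb4, −0.12 to 0.22 for Nnat, −0.0045 to 0.54 for Plagl1, −0.15 to 0.26 for Grb10, −0.14 to 0.071 for Ddc, −0.067 to 0.070 for Commd1, −0.024 to 0.053 for Impact, −0.036 to 0.74 for Ndn, −0.012 to 0.18 for Magel2, −0.076 to 0.16 for Peg12 and −0.061 to 0.60 for Slc38a4. The cause of these changes was not tested.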
